A study of Mus musculus with 9 samples.

Results

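This account covers 10 genes of glucose uptake and glycolysis among the 36528 genes listed for each library: the glucose transporter Slc2a1 and the enzymes Hk1, Hk2, Pfkl, Pfkp, Aldoa, Gapdh, Pgk1, Pkm and Ldha. They were taken by symbol, and all 10 had a row in the tables. Brain cells carrying Cd11b, an integrin chain of microglia and other myeloid cells, were sorted at 11 to 12 months of age and their RNA was sequenced. In the Tau-P301L group, transgenic for tau with the P301L mutation, libraries 1 and 2 were from females and 3 to 5 from males. Wild-type littermates without the transgene gave libraries 1 and 2 from females and 3 and 4 from males. The promoter of the transgene is not stated in the sources used here. Nor do the labels tie each library to its own animal, so the tests below weigh genotype against the spread of these libraries, which may be partly technical.

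Glycolysis splits glucose into pyruvate in the cytosol and yields ATP without oxygen. Glucose enters through GLUT transporters, hexokinase traps it as glucose 6-phosphate, phosphofructokinase commits it to the pathway, and lactate dehydrogenase turns the pyruvate into lactate where it does not enter mitochondria. Microglia are known to shift towards glycolysis when they are activated by inflammatory signals, and many genes of the pathway are targets of the hypoxia factor HIF-1.

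Libraries held 1494727 to 3793606 reads counted in genes, and 3 reads in a library corresponded to 0.791 to 2.01 CPM, the reads of a gene scaled to library size. Levels of 1 gene across libraries are given as CPM after TMM scaling, and levels of different genes are compared as the authors' RPKM, which divides by the length of the gene model. The summed level of 12 microglial markers was 13721 to 18227 CPM in wild-type and 11213 to 18802 CPM in Tau-P301L libraries, with none at 0 in all libraries, while the lists for T and NK cells, for B cells and for red blood cells each summed to at most 8.98 CPM in any library. The mitochondrial share of reads was 9.21 to 22.9%, highest in Tau-P301L library 3, the library with the lowest Hk1, Pfkl and Gapdh below. Tau-P301L library 5 was the shallowest and had the highest summed levels of oligodendrocyte markers (1510 CPM, against 337 to 746 CPM in the other libraries), of markers of their precursors (127 CPM, against 21.4 to 114 CPM) and of astrocyte markers (729.7 CPM, against 324 to 639 CPM). Tau-P301L library 4 had the highest summed level of neutrophil markers (263 CPM, against at most 75.4 CPM elsewhere).

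The 10 genes differed widely in how much of their sequence is theirs alone, and this is shown first because only uniquely aligned reads were counted. Gapdh, which oxidises glyceraldehyde 3-phosphate, is copied in processed pseudogenes all over the mouse genome. A coding stretch of 90 bases of Gapdh, positions 474 to 563 counted from the first base of the start codon and chosen because its windows have the most pseudogene matches, is set here beside the same stretch of 2 pseudogenes and beside the stretch of Hk2 at the same coding positions. Capitals mark the bases that differ from Gapdh. The sequences are those of the GENCODE M21 transcripts.
Gapdh: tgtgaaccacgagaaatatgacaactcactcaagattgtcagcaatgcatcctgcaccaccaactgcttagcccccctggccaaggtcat
Gapdh-ps15: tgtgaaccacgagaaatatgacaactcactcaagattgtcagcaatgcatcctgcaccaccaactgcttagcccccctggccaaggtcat
Gm10284: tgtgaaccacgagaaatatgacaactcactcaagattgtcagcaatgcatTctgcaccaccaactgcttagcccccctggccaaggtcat
Hk2: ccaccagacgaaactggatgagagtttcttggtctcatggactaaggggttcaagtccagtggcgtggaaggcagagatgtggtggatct

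Of the 215 genes with a pseudogene transcript set against this Gapdh stretch, 30 matched it in every base and 90 differed in at most 3 bases. All 41 windows of 50 bases in the Gapdh stretch also occurred in the transcript of another gene, against 0 of 41 in the Hk2 stretch. Over the whole mRNA, 90.4% of the 50-base windows of Gapdh were shared with other genes, 215 of them with a transcript annotated as a pseudogene. The share was 68.0% for Pgk1, which makes the first ATP of the pathway and whose coding sequence was shared in 100% of its windows. It was 34.4% for Pkm, 17.1% for Pfkp, 16.6% for Ldha, 13.5% for Aldoa, 1.74% for Slc2a1 and 0.0543% for Pfkl. Hk1 and Hk2 shared none. Low levels also occurred with little or no sharing, at 0.433 RPKM for Hk1 and 0.359 RPKM for Pfkl, beside 0.354 RPKM for Gapdh. The windows of Pfkp were shared with a transcript of Pitrm1, a protein-coding gene whose span overlaps Pfkp, and not with a pseudogene. The length of the reads is not given in the sources used here, so a window of 50 bases is a choice. Whether and how far shared sequence lowers the counts was not tested.

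**Figure D1:**
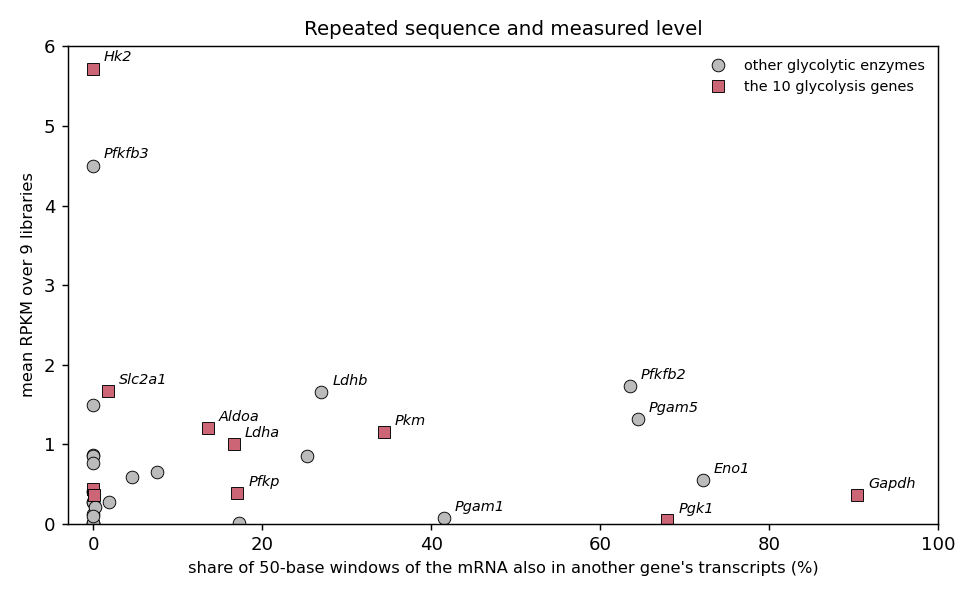
Share of 50-base windows of each mRNA that also occur in transcripts of another gene (x axis, percent) against the mean RPKM over the 9 libraries (y axis), for the 10 glycolysis genes (squares) and 25 other glycolytic enzymes (circles). Hk2 at 5.72 RPKM shared no window and Gapdh at 0.354 RPKM shared 90.4%. Windows shared with an overlapping gene, as for Pfkp, are counted too. Hk1 (0.433 RPKM, no window shared) and Pfkl (0.359 RPKM, 0.0543% shared) are the unlabelled squares at the lower left.

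Gapdh and Pgk1 had too few reads to pass the low-count filter. Gapdh (Entrez 14433, chr6:125161852-125166467 on GRCm38.p6), often taken as a reference for RNA amounts, had 4, 9, 6 and 14 reads in wild-type libraries 1 to 4 and 2, 8, 0, 6 and 1 reads in Tau-P301L libraries 1 to 5. The groups overlapped, and in 3 of the 5 Tau-P301L libraries the count was below 3 reads. Pgk1 (Entrez 18655, chrX:106187100-106203699) had at most 2 reads in any library and none in 4 of the 9. With no filter, edgeR called neither gene, where it called 26 of all 24752 genes tested. The estimate for Gapdh was -0.92 on the log2 scale (SE 1.08, edgeR adjusted p = 0.820). Pgk1, whose libraries are all below 3 reads, had an edgeR adjusted p of 0.894. Of the genes that share windows with Gapdh, 12 were listed in the tables, and the pseudogenes among them had 0 to 90 reads each over all 9 libraries.

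Hk2 (Entrez 15277, chr6:82725025-82774454 on GRCm38.p6), the hexokinase isoform that is inducible in many tissues, was the most abundant of the 10 genes per length in every library and held 46.4 to 66.5% of the reads of all 10. Its level was 129, 159, 132 and 149.5 CPM in wild-type libraries 1 to 4 and 101, 161, 131, 144 and 99.9 CPM in Tau-P301L libraries 1 to 5. Tau-P301L libraries 1 and 5 were the lowest, and the groups overlapped. Hk2 averaged 143 ± 14.1 CPM over wild-type libraries (SD, n = 4) against 127 ± 26.7 CPM over Tau-P301L libraries (SD, n = 5). Its estimate was -0.16 on the log2 scale (SE 0.24, 95% interval -0.65 to 0.33, edgeR adjusted p = 0.927), and it ranged from -0.29 without Tau-P301L library 2 to -0.05 without Tau-P301L library 1. With 143 to 540 reads per library, Hk2 had the narrowest interval of the 8 genes tested.

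Hk1 (Entrez 15275, chr10:62268855-62379920), the hexokinase that most tissues express constantly, was lower in every Tau-P301L library than in every wild-type library. It stood at 11.3, 14.0, 13.8 and 11.1 CPM in wild-type libraries 1 to 4 and at 6.04, 10.4, 4.93, 8.55 and 5.59 CPM in Tau-P301L libraries 1 to 5. The means were 12.5 ± 1.55 CPM (SD, n = 4) and 7.09 ± 2.28 CPM (SD, n = 5), and the log2 fold change was -0.80 (SE 0.47, 95% interval -1.79 to 0.18). The difference did not pass the test over all genes (edgeR adjusted p = 0.789). Hk1 was the only one of the 8 genes tested whose groups did not overlap, where 1.18% of all tested genes were separated in this direction and 2.48% in either. Estimates were also lower in Tau-P301L for 8 of 9 neuronal markers tested (median -0.63), which summed to 241 to 411 CPM in wild-type and 174 to 337 CPM in Tau-P301L libraries, and for 11 of 12 microglial markers (median -0.25). Other lists went the other way, with higher estimates for 6 of 8 astrocyte markers (median 0.44) and 3 of 3 markers of oligodendrocyte precursors (median 1.10). Oligodendrocyte markers had 4 lower and 4 higher estimates. The part of any of these cell types in the Hk1 values was not tested. The counts behind Hk1 are small, 36 to 41 reads in wild-type and 8 to 29 reads in Tau-P301L libraries. The long noncoding RNA Hk1os overlaps Hk1 and had 30 reads over all 9 libraries, and counting is not stated to use strand.

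**Figure D2:**
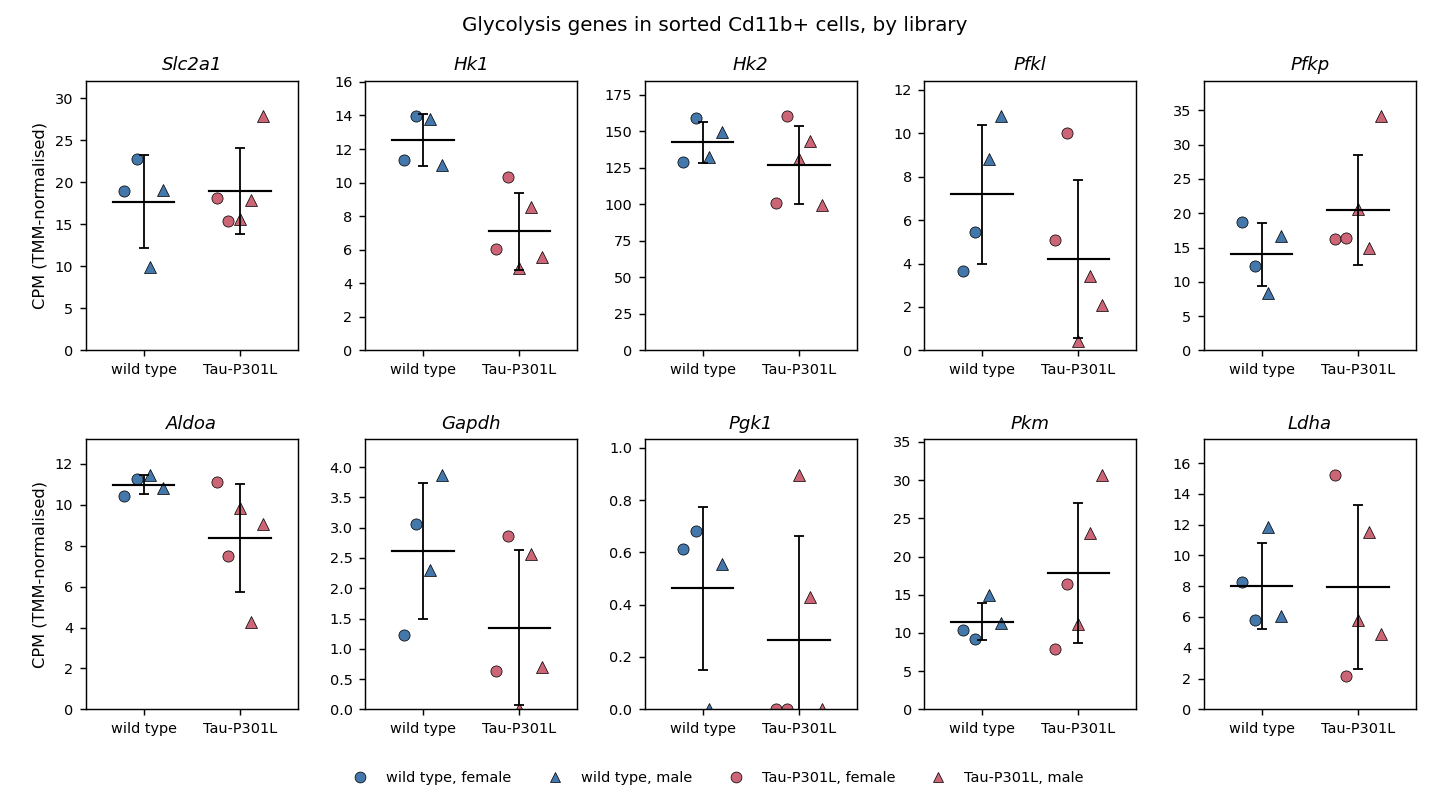
Level of each of the 10 genes (y axis, TMM-normalised CPM, own scale per panel) in each library, with circles for females and triangles for males. Horizontal lines are group means and error bars SD over 4 wild-type and 5 Tau-P301L libraries. Hk1 is the panel in which the groups do not overlap, with wild-type libraries from 11.1 CPM and Tau-P301L libraries up to 10.4 CPM.

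The balance of the hexokinases was also compared as the ratio of Hk2 to Hk1 reads inside each library, which does not depend on how libraries are scaled. This ratio was 11.3, 11.2, 9.49 and 13.3 in wild-type libraries 1 to 4 and 16.3, 15.3, 25.5, 16.4 and 16.9 in Tau-P301L libraries 1 to 5. No Tau-P301L library reached down to the wild-type range. On the log2 scale the mean was 3.49 ± 0.20 in wild-type (SD, n = 4) and 4.15 ± 0.30 in Tau-P301L libraries (SD, n = 5), a difference of 0.66 or a 1.58-fold higher ratio. An exact two-sided permutation test gave p = 0.00794, the smallest it can give, and 0.0397 after adjustment over the 5 ratios compared. Unlike the edgeR fits, this test had no term for sex. The genes were chosen with earlier results of these data known, which the adjustment does not cover. The share of all gene pairs whose ratios separate the groups was not computed, and 2.48% of single genes tested did so. With any 1 library left out the groups still did not overlap (0.53 to 0.74), but the call was lost each time (exact permutation adjusted p = 0.0714 to 0.143), as fewer libraries allow no smaller p than 0.0179. Without Tau-P301L libraries 3 and 5 the difference was 0.51, the groups still did not overlap, and the call was lost (exact permutation adjusted p = 0.143). The ratio rests on the same Hk1 reads as the comparison above and is no independent evidence of it.

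Because this is the pair whose ratio passed its test, the 250 bases before their start sites are shown, from RefSeq on GRCm38.p6. Capitals mark ACGTG or GCGTG on either strand, the core that HIF-1 is known to bind, with overlapping matches counted separately. The Hk2 stretch lies at chr6:82774455-82774704 on the minus strand, and the Hk1 stretch at chr10:62340422-62340671 on the minus strand, the inner of the 2 starts listed for Hk1.
Hk2: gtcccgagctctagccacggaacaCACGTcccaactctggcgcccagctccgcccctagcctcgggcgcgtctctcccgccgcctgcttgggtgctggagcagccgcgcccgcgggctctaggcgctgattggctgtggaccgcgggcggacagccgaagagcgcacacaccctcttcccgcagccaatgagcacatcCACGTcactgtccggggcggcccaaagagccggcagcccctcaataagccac
Hk1: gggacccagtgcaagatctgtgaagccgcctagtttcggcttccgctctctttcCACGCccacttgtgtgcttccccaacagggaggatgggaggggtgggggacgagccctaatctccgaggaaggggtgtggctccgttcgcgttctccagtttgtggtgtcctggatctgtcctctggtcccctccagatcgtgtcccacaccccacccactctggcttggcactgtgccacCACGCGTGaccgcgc

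Hk2 had 2 matches, both to ACGTG, and this Hk1 start had 3, none of them to ACGTG. Over the 10 genes, 12 of 15 listed starts held at least 1 match in 250 bases, and each gene had at least 1 such start. Of 32851 listed starts of all genes, 38.6% held one. A match describes the letters and not binding, and the other Hk1 start had none.

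The third hexokinase listed, Hk3, which is typical of blood cells, ran at 0.868 RPKM on average over the 9 libraries, above Hk1 at 0.433 RPKM and below Hk2 at 5.72 RPKM. Hk3 had a log2 fold change of 0.17 (SE 0.41, edgeR adjusted p = 0.950). The order Hk2 over Hk1 held in all 9 libraries.

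**Figure D3:**
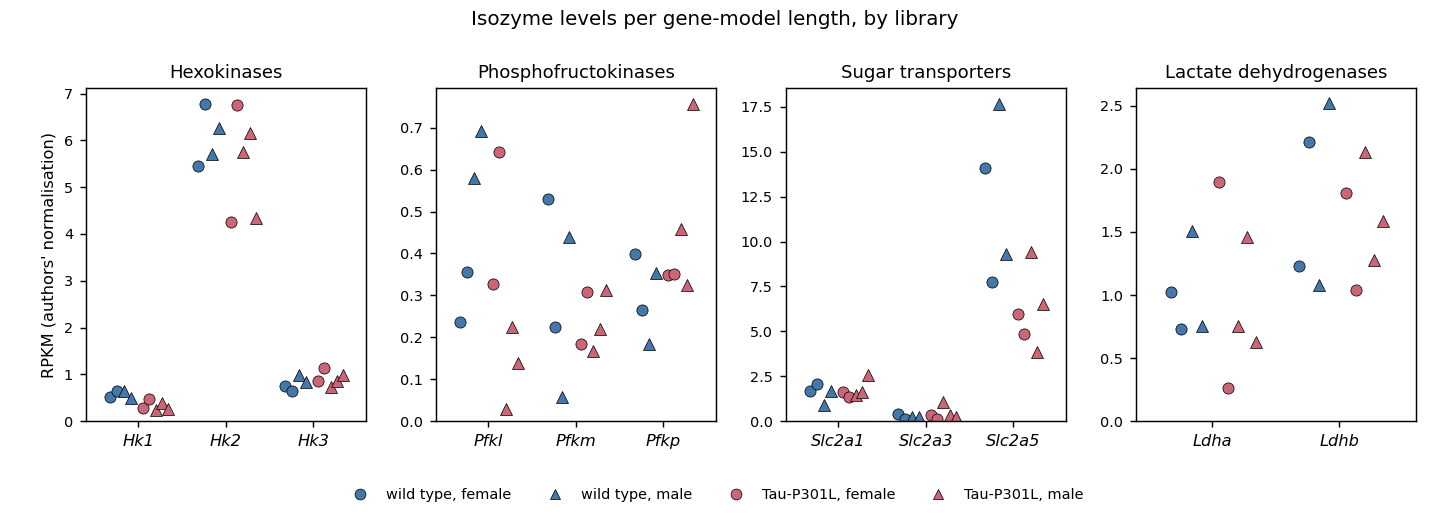
Levels per gene-model length (y axis, the authors' RPKM, linear from 0) of related hexokinases, phosphofructokinases, sugar transporters and lactate dehydrogenases in each library. Hk2 lies above Hk1 and Slc2a5 above Slc2a1 in all 9 libraries, while Pfkl and Pfkp change order between libraries. The order of Pfkl and Pfkp depends on the gene-model length taken for each.

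Phosphofructokinase makes fructose 1,6-bisphosphate, the committed step of glycolysis. Pfkl (Entrez 18641, chr10:77986947-78009807), its liver-type subunit, stood at 3.68, 5.46, 8.80 and 10.8 CPM in wild-type libraries 1 to 4 and at 5.08, 10.0, 0.448, 3.42 and 2.10 CPM in Tau-P301L libraries 1 to 5. The groups overlapped, the lowest value came from 1 read in Tau-P301L library 3, and the estimate was -0.90 on the log2 scale (SE 0.74, 95% interval -2.45 to 0.64, edgeR adjusted p = 0.849). Leaving out 1 library gave values from -1.39 without wild-type library 1 to -0.47 without Tau-P301L library 3, and without Tau-P301L libraries 3 and 5 it was -0.07. The means lay in opposite order in the sexes, with 9.80 CPM in wild-type and 1.99 CPM in Tau-P301L males, and 4.57 and 7.54 CPM in females. The test of that difference gave an interaction of -2.99 on the log2 scale (SE 1.33, unadjusted p = 0.0350, edgeR adjusted p = 0.99999), where 3.95% of all tested genes had an unadjusted p under 0.05.

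Pfkp (Entrez 56421, chr13:6579874-6649060), the platelet-type subunit, stood at 18.7, 12.3, 8.42 and 16.6 CPM in wild-type libraries 1 to 4 and at 16.2, 16.4, 20.6, 15.0 and 34.2 CPM in Tau-P301L libraries 1 to 5. The groups overlapped and Tau-P301L library 5, with the highest oligodendrocyte and precursor markers, was the highest. Its estimate was 0.50 on the log2 scale (SE 0.43, 95% interval -0.39 to 1.40, edgeR adjusted p = 0.850), with 0.28 without that library, 0.24 without wild-type library 3 and 0.14 without Tau-P301L libraries 3 and 5. The part of other cell types in this value was not tested, and in bulk RNA more cells of a type and more RNA per cell cannot be told apart. Per length Pfkp was above Pfkl in 5 libraries and below it in 4. The gene-model length implied by the authors' RPKM was 1.97 times that of Hk2 for Pfkp and 0.654 times for Pfkl. The coding transcripts used for the shared windows are 4145 bases for Pfkp, 3730 bases for Pfkl and 5513 bases for Hk2. The order of Pfkp and Pfkl per length therefore depends on the long gene model of Pfkp. The read ratio of Pfkp to Pfkl differed by 1.64 on the log2 scale between the groups, with overlap (exact permutation p = 0.151, adjusted p = 0.251). This difference was 1.06 without Tau-P301L library 3, where Pfkl had 1 read, and 0.47 without libraries 3 and 5.

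Slc2a1 (Entrez 20525, chr4:119108745-119137330), the transporter GLUT1 that brings glucose across the blood-brain barrier and into many cells, stood at 19.002, 22.8, 9.95 and 19.1 CPM in wild-type libraries 1 to 4. In Tau-P301L libraries 1 to 5 it stood at 18.1, 15.4, 15.7, 17.96 and 27.9 CPM. The lowest library was wild-type 3 and the highest Tau-P301L 5, and the remaining 7 lay between 15.4 and 22.8 CPM. The log2 fold change was 0.11 (SE 0.41, 95% interval -0.74 to 0.96, edgeR adjusted p = 0.971), and it was -0.06 without Tau-P301L library 5 and -0.15 without wild-type library 3. Tau-P301L library 5 also had the highest summed endothelial markers (39.8 CPM, against 15.0 to 37.4 CPM elsewhere). The same held for mural cell markers (21.6 CPM, against 4.43 to 12.0 CPM elsewhere). Wild-type library 3 stood at 29.1 CPM for endothelial markers, inside the range of the others. The part of these cells in the Slc2a1 values was not tested. Per length, Slc2a1 (mean 1.67 RPKM) was above Slc2a3, the neuronal-type transporter GLUT3 (0.352 RPKM), and below Slc2a5, a fructose transporter typical of microglia (8.81 RPKM), in all 9 libraries.

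The ratio of Slc2a1 to Slc2a5 reads was 0.0994, 0.221, 0.0431 and 0.151 in wild-type libraries 1 to 4 and 0.225, 0.233, 0.129, 0.353 and 0.328 in Tau-P301L libraries 1 to 5. Only Tau-P301L library 3 lay below any wild-type library. The difference was 1.13 on the log2 scale (exact permutation p = 0.0635, adjusted p = 0.159), and 0.68 without wild-type library 3. Slc2a5 itself averaged 165 ± 59.9 CPM over wild-type (SD, n = 4) against 81.6 ± 27.0 CPM over Tau-P301L libraries (SD, n = 5). For Slc2a1 to Slc2a3 the difference was -0.34 (exact permutation p = 0.667, adjusted p = 0.833).

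**Figure D4:**
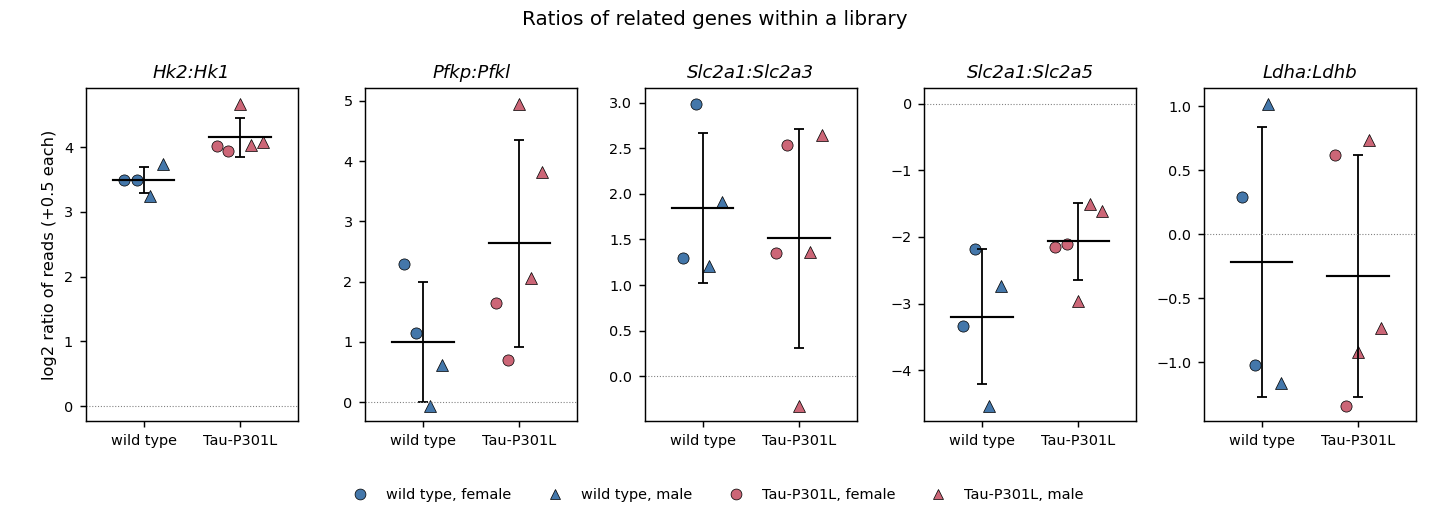
Log2 ratio of the reads of 2 related genes inside each library (y axis, 0.5 reads added to each), with group means and SD over 4 wild-type and 5 Tau-P301L libraries. The Hk2 to Hk1 panel is the one without overlap, with wild-type libraries from 3.25 to 3.74 and Tau-P301L libraries from 3.93 to 4.67.

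Aldoa (Entrez 11674, chr7:126795234-126800994), the aldolase that splits the 6-carbon sugar, was nearly constant in wild-type libraries, at 10.4, 11.3, 11.5 and 10.8 CPM. In Tau-P301L libraries 1 to 5 it stood at 11.1, 7.498, 9.87, 4.28 and 9.08 CPM. Only Tau-P301L library 1 reached the wild-type values. The counts are small, 30 to 39 reads in wild-type and 10 to 35 reads in Tau-P301L libraries. The estimate for Aldoa was -0.39 on the log2 scale (SE 0.48, 95% interval -1.38 to 0.61, edgeR adjusted p = 0.906), -0.22 without Tau-P301L library 4 and -0.63 without libraries 3 and 5.

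Pkm (Entrez 18746, chr9:59656576-59679372), the pyruvate kinase that makes the last ATP of the pathway, stood at 10.4, 9.21, 14.9 and 11.4 CPM in wild-type libraries 1 to 4 and at 7.94, 16.4, 11.2, 23.1 and 30.7 CPM in Tau-P301L libraries 1 to 5. The spread was wide in the Tau-P301L group, which held both the lowest and the highest library. The highest were libraries 5 and 4, the same that led in oligodendrocyte and in neutrophil markers, and the part of those cells was not tested. Its estimate was 0.53 on the log2 scale (SE 0.44, 95% interval -0.39 to 1.45, edgeR adjusted p = 0.849), and 0.35 without Tau-P301L library 5. Reads were counted per gene, so the M1 and M2 splice forms of Pkm cannot be told apart here.

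Ldha (Entrez 16828, chr7:46842274-46855627), the lactate dehydrogenase subunit that favours lactate, stood at 8.28, 5.80, 11.9 and 6.09 CPM in wild-type libraries 1 to 4 and at 15.2, 2.14, 5.83, 11.5 and 4.89 CPM in Tau-P301L libraries 1 to 5. Tau-P301L libraries held both ends of the range. The log2 fold change was 0.00 (SE 0.57, 95% interval -1.19 to 1.197, edgeR adjusted p = 0.999), an interval that leaves a difference of either sign possible. It was -0.70 without Tau-P301L library 1 and 0.30 without wild-type library 3. Ldhb, the subunit that favours pyruvate, was above Ldha per length in 6 of 9 libraries (mean 1.66 and 1.002 RPKM), and the read ratio of Ldha to Ldhb differed by -0.11 between the groups (exact permutation p = 0.849, adjusted p = 0.849).

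**Figure D5:**
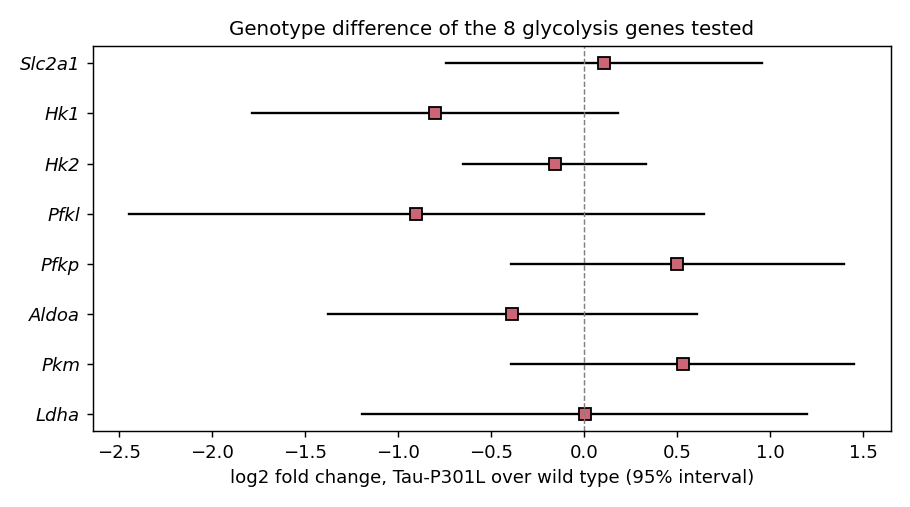
Log2 fold change of Tau-P301L over wild-type (x axis) for the 8 genes tested, with squares for the estimate and lines for the 95% interval of the edgeR fit. All 8 intervals include 0, and that of Hk2, from -0.65 to 0.33, is the narrowest.

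Of the 10 genes, 8 passed the low-count filter, and 0 of these 8 passed an edgeR adjusted p of 0.05, where 0.00816% of all 12250 genes tested did. At an unadjusted p under 0.05 there were also 0 of 8, against 6.35% of all genes, made up of 2.78% lower and 3.57% higher in Tau-P301L. DESeq2 called 0 of the 8 (0.196% of all genes) and limma-voom 0 of the 8 (0.00816% of all genes). Estimates were lower in Tau-P301L for 4 and higher for 4, with a median of -0.08 against -0.00 over all genes tested. The genotype by sex interaction was called for 0 of 8 in edgeR, as for 0% of the 13302 genes tested for it, and 1 of the 8, Pfkl, had an unadjusted p under 0.05. Per length over all 9 libraries the order of the 10 means was Hk2 (5.72 RPKM), Slc2a1 (1.67), Aldoa (1.198), Pkm (1.154), Ldha (1.002), Hk1 (0.433), Pfkp (0.383), Pfkl (0.359), Gapdh (0.354) and Pgk1 (0.0476). Slc2a1, Aldoa, Pkm and Ldha overlapped in their ranges over libraries, as did Hk1, Pfkp, Pfkl and Gapdh. The place of Pfkp in this order depends on its gene model, which is long beside its mRNA.

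The rest of the pathway was described from lists of related genes. Of 25 other glycolytic enzymes and regulators 16 were tested, 8 with lower and 8 with higher estimates, a median of 0.03 and 0 past an edgeR adjusted p of 0.05. Pfkfb3, which makes the activator of phosphofructokinase, averaged 98.6 ± 8.41 CPM over wild-type (SD, n = 4) against 133 ± 28.4 CPM over Tau-P301L libraries (SD, n = 5), with 4 of 5 Tau-P301L libraries above all wild-type libraries (log2 fold change 0.43, SE 0.25, edgeR adjusted p = 0.789). At 4.50 RPKM it was second to Hk2 per length among all the glycolytic genes listed. Gpi1, glucose-6-phosphate isomerase, had a log2 fold change of 0.72 (SE 0.52), Aldoc, the brain-type aldolase, one of -1.09 (SE 0.60) and Eno3, an enolase best known from muscle, one of -0.52 (SE 0.49). Aldoc reached 41.7 CPM in wild-type library 1 and 3.41 to 15.3 CPM in the other libraries, and it also stands in the list of astrocyte markers.

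Among 17 other sugar and lactate carriers 11 were tested, with 7 lower and 4 higher estimates, a median of -0.06 and 0 calls. Slc2a5 had a log2 fold change of -1.04 (SE 0.29, edgeR adjusted p = 0.534) and Slc2a9, a urate transporter, one of -1.002 (SE 0.60). Slc2a10 had 2.03 (SE 0.70, edgeR adjusted p = 0.683), from means of 4.91 ± 6.40 CPM over wild-type (SD, n = 4) and 18.03 ± 5.87 CPM over Tau-P301L libraries (SD, n = 5), with wild-type library 1 at 14.1 CPM. Slc2a3 had 0.57 (SE 0.67).

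For the entry of pyruvate into mitochondria 12 of 15 genes were tested, 7 lower and 5 higher, with a median of -0.03 and 0 calls. The estimates nearest to a call were those of Pdk2, a kinase that switches pyruvate dehydrogenase off (-1.07, SE 0.56), and Pdhb, a subunit of that enzyme (0.91, SE 0.56), followed by Dlat (-0.64, SE 0.50) and Mpc2, part of the pyruvate carrier (0.74, SE 0.74). In the pentose phosphate pathway, which branches off after hexokinase and makes NADPH, 10 of 12 genes were tested, 5 in each direction, with a median of 0.01 and 0 calls. Rpe, an epimerase of the pathway, had 0.87 (SE 0.48), G6pdx, its entry enzyme, 0.48 (SE 0.40), H6pd -0.42 (SE 0.33) and Shpk -1.61 (SE 1.04).

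All 20 listed genes of HIF and MYC control were tested, 12 lower and 8 higher, with a median of -0.06 and 0 calls. Hif1a, the regulated subunit of HIF-1, averaged 64.6 ± 6.73 CPM over wild-type (SD, n = 4) against 87.3 ± 36.5 CPM over Tau-P301L libraries (SD, n = 5; log2 fold change 0.46, SE 0.30, edgeR adjusted p = 0.803), where Tau-P301L libraries 1 and 3 were high at 124 and 130 CPM and the other 3 lay among the wild-type values. Egln3, a HIF prolyl hydroxylase that is itself a HIF target, stood at 0.306, 0.682, 3.44 and 0 CPM in wild-type libraries 1 to 4 and at 5.72, 4.64, 9.87, 3.42 and 10.5 CPM in Tau-P301L libraries 1 to 5 (log2 fold change 2.65, SE 0.90, edgeR adjusted p = 0.683). Wild-type library 3 overlapped the Tau-P301L range, and the wild-type values rest on 0 to 9 reads. Siah1a, a ubiquitin ligase that acts on those hydroxylases, had 0.97 (SE 0.41, edgeR adjusted p = 0.774) with every Tau-P301L library above every wild-type library. Txnip, a glucose-induced inhibitor of glucose uptake, had -0.49 (SE 0.26, edgeR adjusted p = 0.789) with its highest Tau-P301L library under the lowest wild-type one (87.7 and 88.9 CPM), and Rptor, part of the growth regulator mTORC1, had -0.52 (SE 0.28). Siah1a and Txnip were the 2 of these 20 genes whose groups did not overlap, where 2.48% of all genes tested did not overlap in either direction.

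Of 21 HIF targets outside glycolysis, 13 were tested, 6 lower and 7 higher, with a median of 0.16 and 0 calls. Besides Egln3, the smallest p belonged to Bhlhe40, a transcriptional repressor (2.18, SE 0.76, edgeR adjusted p = 0.684), which reached 40.7 CPM in Tau-P301L library 2 and 1.27 to 9.08 CPM in all other libraries. Mxi1 had -0.26 (SE 0.39) and Vegfa, the vascular growth factor, -0.19 (SE 0.61). Egln3 and Pdk1 each stand in 2 of these lists, so the lists are not independent.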

How the data were processed

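Each library had a table of genes by Entrez number with 2 columns. One gives counts of uniquely aligning reads per gene model, per the file headers. The other gives RPKM that the authors adjusted by a size factor, per the file headers. GSNAP and GRCm38 are named in the submitters' processing notes. The version, annotation, strand setting and filters were not given in the sources used here. Symbols came from RefSeq GRCm38.p6, with 31049 of 36528 numbers matched. The genes and lists were chosen with earlier results of these data known.

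Counts were tested with edgeR 4.0.16 in R 4.3.3 (quasi-likelihood F test, TMM, default low-count filter, robust dispersions, sex as an additive term, Benjamini-Hochberg adjustment over 12250 genes, threshold 0.05). The interaction used a fit with the product of sex and genotype. Ratios used reads + 0.5 and exact two-sided permutation without a sex term. Library totals were 1494727 to 3793606 reads, so that 3 reads equal 0.791 to 2.01 CPM. Only the edgeR genotype fit was run on simulated data, and the ratio test and the interaction fit were not. Alternatives were DESeq2 1.42.0, limma-voom (limma 3.58.1), other scalings and filters, no sex term, each sex alone and libraries left out. Named from the lists were genes past the threshold or else the 2 of smallest p in each direction. Hif1a, Hk3 and Ldhb were added for context after their values were seen, and Slc16a6 and Gapdhs were picked for their levels. Shared windows were exact matches of 50 bases, either strand, in GENCODE M21 transcripts of other genes, for the coding transcript with the longest coding sequence.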

Additional observations from a re-analysis of the deposited data

Results flagged for a closer look

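Slc2a1 in Tau-P301L library 5 stood at 27.9 CPM, far from the next highest of its group at 18.1 CPM. The Hk2 to Hk1 ratio in Tau-P301L library 3 was 4.67 on the log2 scale, far from the next highest of its group at 4.08, and rests on 11 Hk1 reads. These were 2 of 30 sets of libraries checked, and chance marks about 1 in 20.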

How the results depend on the processing

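The genes tested gave 0 calls for genotype under the 20 alternatives and 0 for the interaction under the 16, with smallest adjusted p of 0.576 and 0.657 over the 8 genes of the report. The stricter filter tested 6 of them, without Pfkl and Ldha, and other settings tested up to 10. Calls were also few over all genes, so 0 calls here is near the general share. For genotype they were 0 of 11659 genes in females alone and 0 of 12040 in males alone. The most in any setting were 26 of 24752 with no low-count filter. For the interaction the most were 22 of 24752, also with no low-count filter. The direction held in 145 of 158 genotype and 131 of 142 interaction estimates. It turned for Slc2a1 in females alone (-0.32) and without Tau-P301L libraries 3 and 5 (-0.075), for Pfkl in females alone (0.71), and for Ldha with limma-voom (-0.24), in males alone (-0.25), with no low-count filter (-0.0044) and with upper-quartile scaling (-0.00090). The interaction turned for Hk2 with DESeq2 (0.0131), RLE (0.0123) and the authors' size factors (0.0097), and for Ldha with limma-voom (0.0335). Leaving out 1 library gave genotype estimates of -0.15 to 0.24 for Slc2a1 and -0.70 to 0.30 for Ldha, and interactions of -0.66 to 0.10 for Hk1, -0.33 to 0.34 for Hk2, -0.028 to 1.01 for Pkm and -1.37 to 1.44 for Ldha. In the interaction fits this can leave 1 sex of a genotype with 1 library, which is assumed to vary like the others. Of the 5 ratios 1 was called with all libraries, and 0 (0 to 0) with any 1 left out or without Tau-P301L libraries 3 and 5. Without any 1 library the Hk2 to Hk1 difference was 0.53 to 0.74, the groups never overlapped, and adjusted p was 0.0714 to 0.143. The smallest exact p that 8 libraries allow is 0.0179 or 0.0286. Slc2a1 to Slc2a3 ranged from -0.62 to 0.12, and Ldha to Ldhb from -0.43 to 0.30, with 0.22 without libraries 3 and 5. The cause of these turns was not tested. No paired analysis was possible because the labels carry no replicate numbers, and those used here follow accession order and only name libraries. Few reads limit Gapdh and Pgk1 (at most 14 per library) and Pfkl, Hk1, Aldoa and Ldha (1 to 48). Pfkp, Pkm and Slc2a1 had 22 to 69 reads per library.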

Other observations

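Gapdhs, the isozyme of Gapdh known from sperm, had more reads than Gapdh in 8 of 9 libraries, 3 to 37 against 0 to 14, and 4.55% of its windows were shared. Slc16a6, a carrier of the monocarboxylate family, was at 32.5 RPKM on average over the 9 libraries, above all other carriers listed and above Hk2 at 5.72 RPKM. Slc16a6 had a log2 fold change of -0.32 (SE 0.21, edgeR adjusted p = 0.803).

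The 5 tested genes outside all lists whose centred log2 CPM lay closest to the mean profile of the 8 tested genes over the 9 libraries were Gzf1, Gtf3c6, Usp7, Swap70 and Fer, with mean absolute differences of 0.08 to 0.10 on the log2 scale. The 8 genes themselves lay 0.22 (Hk2) to 0.71 (Pfkl) from that mean. The 5 genes were picked for their closeness, so the 2 ranges are not a comparison. The mean profile was lowest in Tau-P301L library 3, at -0.40, and between -0.02 and 0.19 in the other 8 libraries. That library also had the highest mitochondrial share of reads, 22.9% against 9.21 to 19.8%, and the part of this in the profile was not tested.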
